A study of Mus musculus with 8 samples.

Results

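Male and female white fat was compared in mice of the rsl strain, with genes of the X and Y chromosomes left aside. The comparison used the 4 rsl pools among the 8 pools of the study, as their labels give them: 2 pools of XY mice (rsl male 1 and 2) and 2 pools of XX mice (rsl female 1 and 2). The rsl groups were adult B10.D2.PL (rsl/rsl) males and adult B10.D2.PL (rsl/rsl) females, which carry no functional Regulator of sex-limitation (Rsl) genes, a cluster of zinc finger repressors. The wild type groups were adult B10.D2 (Rsl/Rsl) males and females, with 2 pools of each sex, and entered the same fit, so that they share the estimate of spread behind each p-value. All mice ate standard laboratory chow, and each pool joined equal amounts of RNA from 5 mice, so that the spread between 2 pools is not the spread between mice. The labels call the 2 pools of each group biological replicates, and nothing in the sources tells if pools of a group shared mice. A p-value here covers the spread from pool to pool, which may be technical if they did. Signals came from Affymetrix Mouse Genome 430 2.0 PM arrays and are log2 values per probe set.

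White adipocytes store triglyceride and secrete hormones such as leptin and adiponectin. Abdominal fat of the male mouse includes the pad attached to the epididymis, the duct in which sperm mature, and that of the female includes the pad around the ovary and uterus. Fat depots keep the Hox code of the body position where they arose, and pads inside the abdomen are covered by mesothelium. The labels name the tissue only as abdominal white adipose, and 1 field calls the same RNA liver. The 19 measured adipocyte markers averaged 11.10 and 11.67 in males, against 11.80 and 11.79 in females, and all 19 were above background on the 4 rsl arrays. The 21 measured liver markers averaged 5.56 and 5.72 in males, against 5.98 and 5.92 in females. Of the sex checks, Xist gave 4.98 and 4.87 in the male pools, against 11.27 and 11.29 in the female pools, and Ddx3y, Eif2s3y, Kdm5d and Uty were below background in both female pools.

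Of 17847 autosomal genes, 3036 differed between male and female rsl fat (17%, limma with Benjamini-Hochberg adjusted p under 0.05). Males were higher for 1221 genes (6.84%) and lower for 1815 (10.2%). The difference passed 1 log2 unit for 587 of the genes higher in males and 368 of those lower. The median difference of all autosomal genes was -0.03. In all 3036 genes both male pools lay on the same side of both female pools, as they did in 61.6% of all autosomal genes. The 2 male pools were less alike than the 2 female pools, with 723 probe sets apart by 1 log2 unit or more in males and 28 in females. In simulated arrays where each probe set kept its own spread in each group, false calls rose far above the threshold. The 3036 calls may therefore hold more false calls than the threshold implies. Rsl male 1 was also the male pool farther from the females: it was above rsl male 2 in 90.3% of the genes called higher, and in 53.5% of all autosomal genes. It was below rsl male 2 in 79.8% of the genes called lower, and in 46.4% of all. Signals of the 3' over the 5' probe sets of Gapdh, a sign of RNA quality, differed by 0.79 and 1.03 in the male pools, against 0.66 and 0.50 in the female pools, and their part in the results was not tested. The count was 1095 when the 4 rsl arrays were fitted alone. It was 398 without rsl female 1, 327 without rsl female 2, 1510 without either wild type female pool, and, with rsl male 1 or rsl male 2 left out, 1780 or 5305. In bulk tissue, fewer cells of a type and less RNA per cell cannot be told apart.

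The largest differences were transcripts of the epididymis, bright in both male rsl pools and near background in both female rsl pools. All 15 measured members of the epididymis list were called higher in males, against 6.84% of all autosomal genes. Their median difference was 7.86 log2 units. The list was chosen with earlier results of these data known, so its share of calls is a description and no independent test. The list averaged 12.02 and 11.44 in males, against 4.05 and 3.98 in females. Lcn8, an epididymal lipocalin, gave 12.84 and 12.19 in the rsl male pools, against 4.04 and 4.03 in the rsl female pools, a difference of 8.48 ± 0.47, adjusted p = 0.000413 (SE). Lcn5, a lipocalin that binds retinoic acid, gave 13.02 and 12.71 in males, against 4.06 and 4.67 in females (8.50 ± 1.76, adjusted p = 0.026). Lcn9 of the same family gave 12.29 and 11.83 in males, against 4.07 and 4.15 in females (7.95 ± 0.42, adjusted p = 0.000342). These lipocalins lie close together on chromosome 2, and in each of them the male and female pools stood far apart with no overlap. Crisp1, a secreted protein that coats sperm, gave 12.40 and 12.25 in males, against 3.74 and 3.31 in females, and was at least 341-fold higher in males (adjusted p = 0.0141). Gpx5, a glutathione peroxidase of the epididymal lumen, gave 13.09 and 12.94 in males, against 5.49 and 5.60 in females (7.47 ± 0.53, adjusted p = 0.00101). Both female values of Crisp1 were below background, whereas those of Gpx5 were above it. The cystatin Cst8 gave 12.31 and 11.74 in males, against 4.16 and 4.17 in females (7.86 ± 0.35, adjusted p = 0.000164). Cst11 gave 11.81 and 11.02 in males, against 3.61 and 3.49 in females, which put males at least 181-fold higher (adjusted p = 2.65e-05), and Cst12 gave 11.31 and 10.47 in males, against 3.26 and 3.12 in females (at least 126-fold higher, adjusted p = 7.27e-05). The cystatins are inhibitors of cysteine proteases, and Cstdc2, of the same domain family, gave 12.38 and 11.33 in males, against 4.40 and 4.56 in females (7.38 ± 0.35, adjusted p = 0.000225). Defb42, a beta-defensin, gave 12.70 and 12.18 in males, against 3.89 and 3.79 in females (8.60 ± 1.61, adjusted p = 0.0194), and Adam7, a membrane protein of the epididymis, gave 12.34 and 12.04 in males, against 4.24 and 4.09 in females (8.03 ± 1.55, adjusted p = 0.0211). Rnase10 gave 12.43 and 11.86 in males, against 4.34 and 4.36 in females (7.79 ± 0.32, adjusted p = 0.000121). In every one of these genes rsl male 1 was the higher male pool. The standard errors of Lcn5, Defb42, Adam7 and Spink8 also hold the wide spread of the wild type male pools. For Lcn5 those pools gave 12.59 and 6.04. Lypd8, Cuzd1, Spink8 and Muc15 were also among the 15 largest rises, with differences of 8.37 ± 0.25, 8.33 ± 0.83 and 7.83 ± 1.81 log2 units for the first 3, and at least 184-fold higher for Muc15. Of these 16 calls, 10 held under every alternative run, and the number lost was 6 without either rsl female pool and 5 without rsl male 1 or either wild type female pool.

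The promoters of 3 epididymal lipocalins are printed below beside those of Hoxa10 and Pgr, 2 genes lower in males that are described further on, because the sets differed in their content of CG dinucleotides. They come from RefSeq on the GRCm38.p6 build, cover 300 bases around the transcription start, and are written 5′ to 3′ with each CG in capitals. The windows are Lcn8 at chr2:25652868-25653167 (+ strand), Lcn5 at chr2:25657702-25658001 (+ strand), Lcn9 at chr2:25822903-25823202 (+ strand), Hoxa10 at chr6:52240805-52241104 (- strand) and Pgr at chr9:8899583-8899882 (+ strand). For Hoxa10, 2 starts are listed and the first was taken.
Lcn8: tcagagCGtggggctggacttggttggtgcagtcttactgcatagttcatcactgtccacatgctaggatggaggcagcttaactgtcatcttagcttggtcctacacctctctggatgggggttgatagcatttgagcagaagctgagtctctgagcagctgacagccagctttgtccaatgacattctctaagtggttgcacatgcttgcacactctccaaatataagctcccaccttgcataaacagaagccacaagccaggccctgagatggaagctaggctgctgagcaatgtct
Lcn5: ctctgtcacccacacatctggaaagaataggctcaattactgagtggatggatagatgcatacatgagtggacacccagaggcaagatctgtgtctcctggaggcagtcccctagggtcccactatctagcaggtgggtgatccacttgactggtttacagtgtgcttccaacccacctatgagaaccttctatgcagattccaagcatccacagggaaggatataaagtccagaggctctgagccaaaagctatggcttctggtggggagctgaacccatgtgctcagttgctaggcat
Lcn9: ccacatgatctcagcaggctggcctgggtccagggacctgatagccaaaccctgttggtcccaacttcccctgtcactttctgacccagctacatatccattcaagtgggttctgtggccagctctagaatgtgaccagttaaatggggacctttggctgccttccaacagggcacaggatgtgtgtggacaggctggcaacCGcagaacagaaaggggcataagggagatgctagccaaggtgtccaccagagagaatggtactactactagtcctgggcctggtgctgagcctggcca
Hoxa10: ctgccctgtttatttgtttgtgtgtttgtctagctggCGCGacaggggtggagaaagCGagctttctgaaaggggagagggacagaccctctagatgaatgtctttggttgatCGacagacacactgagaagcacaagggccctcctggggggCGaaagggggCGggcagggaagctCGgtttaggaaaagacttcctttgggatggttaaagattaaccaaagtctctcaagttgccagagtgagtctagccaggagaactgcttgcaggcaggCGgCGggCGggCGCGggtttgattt
Pgr: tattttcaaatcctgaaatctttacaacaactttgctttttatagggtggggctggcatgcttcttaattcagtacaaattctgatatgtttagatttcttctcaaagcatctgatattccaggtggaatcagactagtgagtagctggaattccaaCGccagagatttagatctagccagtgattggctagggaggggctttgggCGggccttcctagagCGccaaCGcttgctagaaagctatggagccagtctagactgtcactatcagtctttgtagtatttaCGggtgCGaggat
The windows of Lcn8, Lcn5 and Lcn9 hold 1, 0 and 1 CG, and those of Hoxa10 and Pgr hold 12 and 6. A promoter was listed for 14009 of the 17847 autosomal genes, with a median of 17 CG in the window and quartiles of 7 and 27. The 12 members of the epididymis list with a promoter had a median of 1.5, and the 20 Hox genes with one had a median of 13.5. Genes called higher in males (930 with a promoter) had a median of 19, and genes called lower (1430) a median of 20. The low content was seen in the epididymal list and not in the male-high genes as a whole. The letters TATAAA stood on either strand in 16.7% of the 12 epididymal windows, against 9.8% of all. So few windows do not tell these 2 shares apart. These are counts of letters in a window and say nothing of what binds there.

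**Figure D1:**
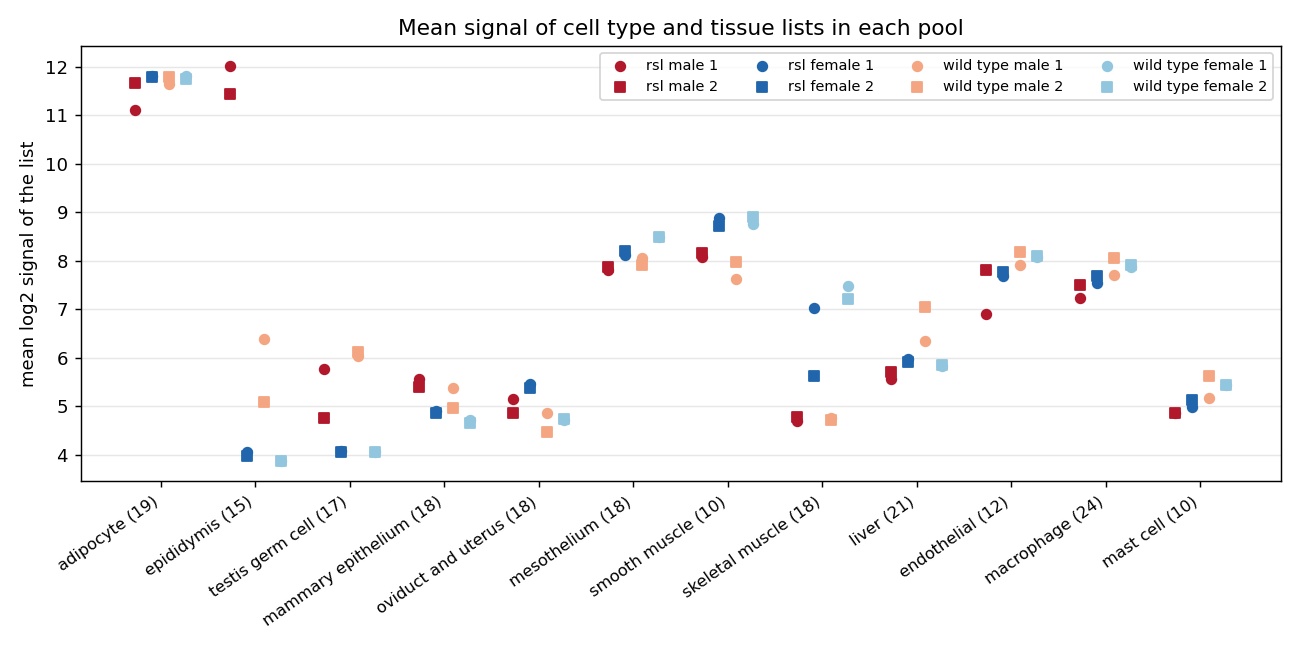
Mean log2 signal of 12 marker lists (vertical axis) in each of the 8 pools, with the number of measured autosomal members in brackets; colours give the group and the marker shape the pool. The epididymis list averaged 12.02 and 11.44 in rsl males, against 4.05 and 3.98 in rsl females, while the skeletal muscle list was lower in males of both strains.

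Some sperm transcripts were also higher in the male pools and near or below background in the female pools. Of 17 measured germ cell markers, 5 were called higher and 0 lower in males (29.4% in all, against 17% of all autosomal genes). Prm2, a protamine that packs DNA in the sperm head, gave 8.96 and 6.61 in the rsl male pools, against 4.28 and 3.99 in the rsl female pools (3.65 ± 0.64, adjusted p = 0.0159). Prm1 gave 7.75 and 6.17 in males, against 4.53 and 4.11 in females (2.64 ± 0.47, adjusted p = 0.017). The germ cell list averaged 5.76 and 4.76 in males, against 4.08 and 4.07 in females, with rsl male 1 above rsl male 2, as with the epididymal list. In wild type males 1 and 2 the germ cell list averaged 6.04 and 6.12, and the epididymal list 6.39 and 5.09. Odf1, of the fibres of the sperm tail, gave 7.35 and 5.67 in males, against 3.68 and 3.23 in females and was at least 6.06-fold higher (adjusted p = 0.0145). Smcp, of the sperm mitochondrial capsule, gave 7.47 and 5.93 in males, against 4.08 and 4.24 in females (2.54 ± 0.45, adjusted p = 0.0167), and Tnp1, a transition protein of spermatids, gave 6.85 and 4.84 in males, against 3.30 and 3.37 in females (at least 3.81-fold higher, adjusted p = 0.029). The transcripts called are those of late spermatids, and other germ cell markers such as Ldhc and Acr did not pass the test. Of 13 measured markers of seminal vesicle, vas deferens and prostate, 0 passed in the limma fit, and 1 had an unadjusted p under 0.05. Clu, a secreted chaperone that is abundant in epididymis and Sertoli cells, gave 12.79 and 12.57 in males, against 10.22 and 10.36 in females (2.40 ± 0.44, adjusted p = 0.0179). Every alternative run kept 0 of these 6 calls, and the losses were 5 with the 4 rsl arrays fitted alone, 6 without either rsl female pool and 1 without rsl male 1 or either wild type female pool. In the testis germ cell list the number called was 0 with the rsl arrays alone or without either rsl female pool and 10 without rsl male 2. For the seminal vesicle, vas deferens and prostate list the number was 2 with the rsl arrays alone and 3 without either wild type male pool.

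Some genes of epithelia were higher in males as well. Krt18 and Krt8, the keratin pair of simple epithelia, are in the mesothelium list but moved against most of it: Krt18 gave 10.60 and 9.66 in males, against 6.38 and 6.49 in females (3.69 ± 0.46, adjusted p = 0.00622), and Krt8 gave 10.67 and 9.85 in males, against 7.65 and 7.66 in females (2.60 ± 0.32, adjusted p = 0.00596). Cldn3, a protein of tight junctions, gave 9.73 and 8.83 in males, against 5.82 and 6.05 in females (3.35 ± 0.73, adjusted p = 0.0307). Prom1, a membrane protein of epithelial protrusions, gave 11.60 and 10.95 in males, against 6.90 and 6.64 in females (4.51 ± 0.43, adjusted p = 0.00276), and Krt5, a keratin of basal cells, gave 6.49 and 6.02 in males, against 4.80 and 4.94 in females (1.38 ± 0.24, adjusted p = 0.0156). Those 3 genes and Epcam (0.72 ± 0.18) were the 4 of 18 measured members of the mammary epithelium list that were called (22.2%, against 17% of all autosomal genes), all higher in males, while milk protein genes of the list such as Csn2 and Wap did not pass. Pax8, a transcription factor of the genital duct and kidney epithelium, gave 7.72 and 6.50 in males, against 3.75 and 4.18 in females (3.14 ± 0.66, adjusted p = 0.0275). Each of these genes was higher in rsl male 1 than in rsl male 2, as the epididymal list was (12.02 and 11.44), and the part of epididymal tissue in them was not tested. Among these 7 calls 1 held under all alternatives run, and those lost numbered 1 with the 4 rsl arrays fitted alone, 6 without either rsl female pool and 3 without rsl male 1 or either wild type female pool. In the mammary epithelium list the number called was 1 without either rsl female pool.

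A few genes known from the uterus and from skeletal muscle were lower in male rsl fat. Of 18 measured members of the oviduct and uterus list, 2 were called higher and 7 lower in males (50% in all, against 17% of all autosomal genes). Pax8 and Greb1 were the members called higher, and the lower ones included Hoxa10 and Pgr. Sprr2f, a small proline-rich protein induced by estrogen in the mouse uterus, gave 3.26 and 3.19 in the rsl male pools, against 7.21 and 7.02 in the rsl female pools and was at least 9.56-fold lower in males (adjusted p = 3.96e-05). Prap1, a secreted protein of uterine epithelium, gave 4.21 and 4.08 in males, against 7.31 and 6.99 in females (-3.01 ± 0.12, adjusted p = 0.000121). Both female pools were alike in these genes, and both male values of Sprr2f were below background. Of the 18 measured muscle genes, 0 were called higher and 4 lower in males (22.2% in all), with a median difference of -1.53. Tnnc2, the troponin C of fast muscle, gave 4.28 and 4.11 in males, against 8.48 and 6.32 in females (-3.21 ± 0.59, adjusted p = 0.0186), and Myh1, a fast myosin heavy chain, gave 4.21 and 3.91 in males, against 8.03 and 6.35 in females (-3.13 ± 0.52, adjusted p = 0.0136). Mylpf, a myosin light chain, gave 4.35 and 4.55 in males, against 7.55 and 6.06 in females (-2.35 ± 0.41, adjusted p = 0.0161). The muscle genes differed between the female pools, with list means of 7.02 in rsl female 1 and 5.62 in rsl female 2, and both were above the male means of 4.69 and 4.78. Of 15 measured ovary markers, 2 were called higher and 0 lower in males (13.3% in all), namely the inhibin subunits Inhba (0.72 ± 0.14) and Inha (1.10 ± 0.23), while egg coat genes such as Zp3 and the granulosa gene Fshr were not above background. Of these 7 calls, 2 held under every alternative run, and the number lost was 5 with the 4 rsl arrays fitted alone, 3 without rsl female 1 and 2 without rsl male 1 or rsl female 2 or either wild type female pool. In the oviduct and uterus list the number called was 5 without rsl female 1. For the skeletal muscle list the number was 0 with the rsl arrays alone, 2 without rsl female 1 and 13 without rsl female 2. In the ovary list the number called was 0 with the rsl arrays alone or without either rsl female pool or either wild type female pool.

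Of 35 measured Hox genes, 17 (48.6%) differed between the male and female pools, against 17% of all autosomal genes, and in both directions. Hoxa9, Hoxa10, Hoxa11, Hoxc9, Hoxc10, Hoxd10 and Hoxd11 were lower in males, whereas Hoxb2 to Hoxb6, Hoxb9, Hoxc4, Hoxc8, Hoxd4 and Hoxd8, were higher. Hoxc10 gave 4.10 and 4.60 in the rsl male pools, against 7.53 and 7.32 in the rsl female pools (-3.07 ± 0.19, adjusted p = 0.000693). Hoxa10 gave 4.42 and 4.76 in males, against 7.44 and 7.32 in females (-2.79 ± 0.13, adjusted p = 0.000238), and Hoxa9 gave 5.50 and 6.33 in males, against 8.60 and 8.68 in females (-2.72 ± 0.25, adjusted p = 0.00245). In these 3 transcription factor genes both male pools were far below both female pools. Of the other genes called lower, Hoxd10 was below background in both male pools and Hoxd11 in all 4. Hoxb6 had the largest rise, with 9.13 and 8.38 in males, against 5.26 and 5.32 in females (3.47 ± 0.37, adjusted p = 0.00388). Hoxb3 gave 8.54 and 7.79 in males, against 6.22 and 6.11 in females (2.00 ± 0.25, adjusted p = 0.00587), and Hoxd4 gave 8.30 and 7.38 in males, against 5.98 and 5.74 in females (1.99 ± 0.28, adjusted p = 0.00866). Hoxb2, Hoxb4, Hoxb5, Hoxb9, Hoxc4, Hoxc8 and Hoxd8 were the other genes called higher, with differences from 0.94 (Hoxc8) to 1.80 (Hoxb2). Hoxb6, Hoxb3 and Hoxd4 were higher in rsl male 1 than in rsl male 2, as the epididymal list was, and the part of epididymal tissue in them was not tested. Hoxc10, Hoxa10 and Hoxa9 were lower in rsl male 1 than in rsl male 2. The 6 calls followed next are those given with a standard error. Every alternative run kept 3 of these 6 calls, and the losses were 3 without rsl female 2 and 2 without rsl female 1. In the depot position list the number called was 11 with the rsl arrays alone and 4 (1 higher, 3 lower) without rsl female 2.

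**Figure D2:**
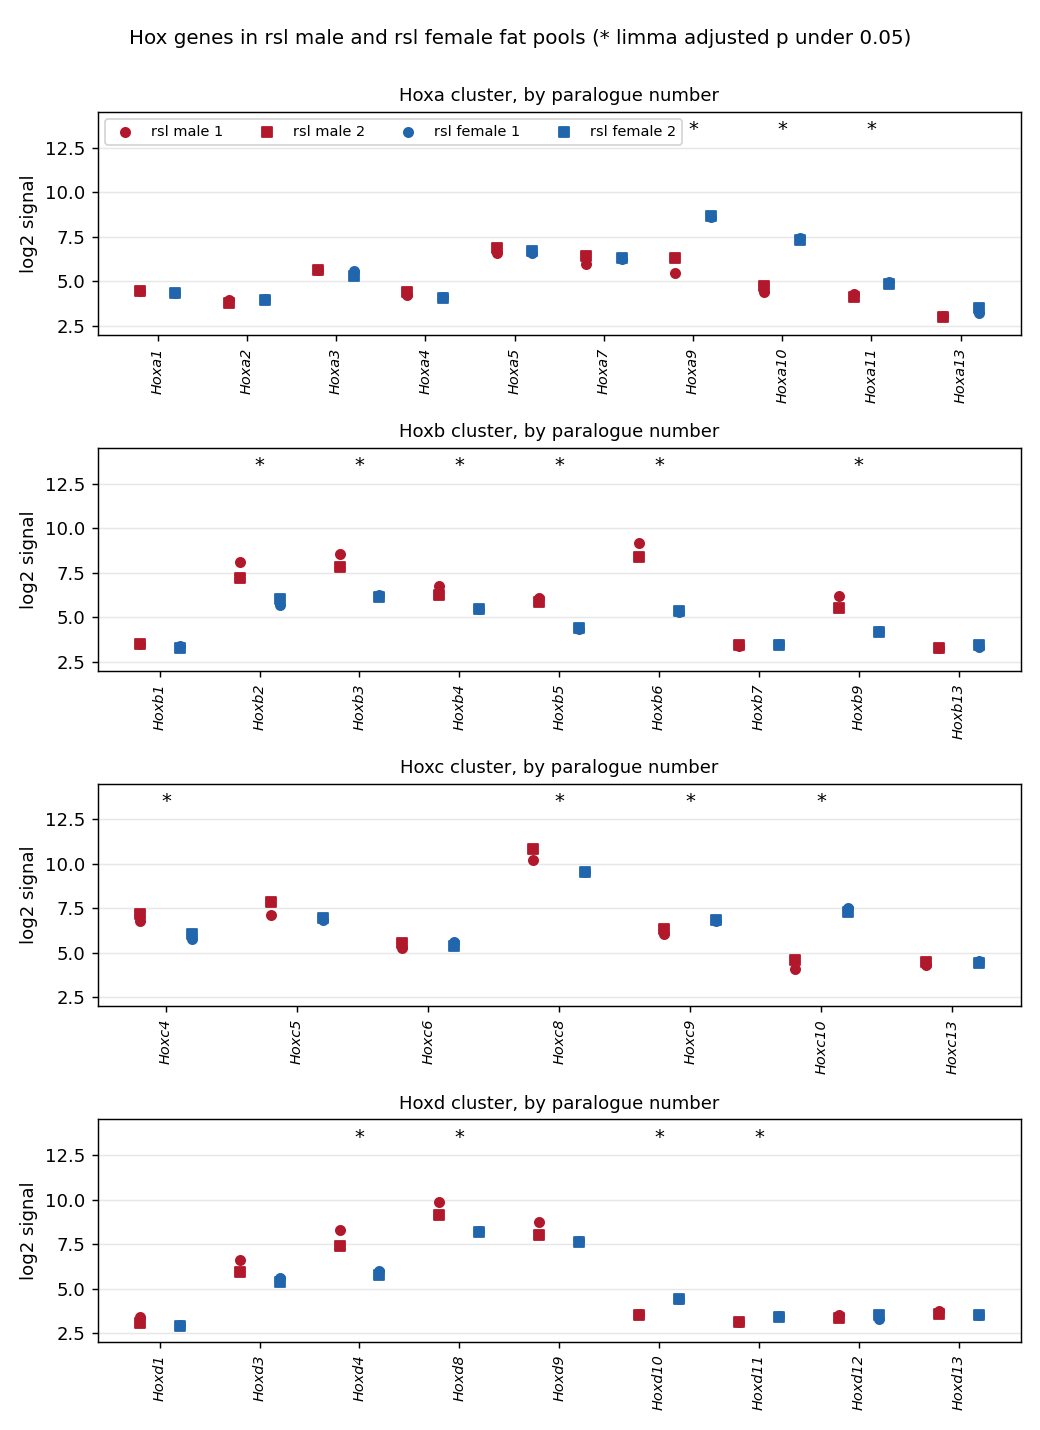
Log2 signal of each measured Hox gene (vertical axis) in the 2 rsl male and 2 rsl female pools, with 1 panel a cluster and genes ordered by paralogue number; a star marks a limma adjusted p under 0.05. Hoxa9, Hoxa10 and Hoxc10 were lower in both male pools, and Hoxb2 to Hoxb6 were higher.

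Some transcription factors of depot origin and most markers of the mesothelial cover were lower in male rsl fat. Of 28 measured depot transcription factors, 0 were called higher and 7 lower in males (25% in all, against 17% of all autosomal genes), with a median difference of -0.03. Their differences ran from -1.83 to 3.40, and 11 of the 28 were above 0. The largest change in the list was thus a rise, which did not pass. Wt1, a factor of visceral fat and mesothelium, gave 4.94 and 5.33 in the rsl male pools, against 7.03 and 6.91 in the rsl female pools (-1.83 ± 0.17, adjusted p = 0.00247). Gata6, a zinc finger factor of visceral mesoderm, gave 6.18 and 7.12 in males, against 8.20 and 8.22 in females (-1.56 ± 0.28, adjusted p = 0.0179). Males were the lower sex in both genes with no overlap. Hand2 (-1.11 ± 0.11), Osr1 (-1.13 ± 0.21), Tbx18 (-1.09 ± 0.19) and Meox2 (-1.08) were also called. Of 18 measured mesothelium markers, 4 were called higher and 11 lower in males (83.3% in all). Muc16, a cell surface mucin, gave 4.92 and 5.30 in males, against 6.99 and 7.06 in females (-1.92 ± 0.16, adjusted p = 0.00191). Bnc1, basonuclin, gave 5.65 and 6.13 in males, against 7.46 and 7.66 in females (-1.67 ± 0.17, adjusted p = 0.00342), and Upk3b, a uroplakin of mesothelium, gave 8.64 and 9.23 in males, against 10.18 and 10.29 in females (-1.30 ± 0.18, adjusted p = 0.00794). Msln, which codes for mesothelin, was called at -1.22. The 4 members called higher were Krt18, Krt8, Slpi and Cpe, which epithelia express too. The list averaged 7.81 and 7.87 in males, against 8.12 and 8.19 in females. The 8 calls followed next are those given with a standard error, so Meox2 and Msln are not among them. Among these 8 calls 4 held under all alternatives run, and those lost numbered 2 with the 4 rsl arrays fitted alone, 4 without either rsl female pool and 1 without rsl male 1. In the depot transcription factors list the number called was 5 (1 higher, 4 lower) with the rsl arrays alone and 3 without either rsl female pool. For the mesothelium list the number was 4 without rsl female 2. Without rsl male 2 or either wild type male pool, 3 depot transcription factors were called higher.

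Core adipocyte transcripts were called at a share near that of all autosomal genes, while enzymes of fatty acid synthesis were broadly lower in males. Of the 19 adipocyte markers, 0 were called higher and 4 lower in males (21.1% in all, against 17% of all autosomal genes). Their median difference was -0.32, and 1 of the 19 differences was above 0. Pparg, the receptor that drives fat cell differentiation, gave 9.20 and 9.97 in the rsl male pools, against 10.90 and 10.88 in the rsl female pools (-1.30 ± 0.23, adjusted p = 0.0171). Slc2a4, the insulin-responsive glucose transporter, gave 8.43 and 9.12 in males, against 9.64 and 9.63 in females (-0.86 ± 0.20, adjusted p = 0.0335), and Acsl1, which activates fatty acids, gave 12.04 and 12.02 in males, against 12.72 and 12.71 in females (-0.68 ± 0.08, adjusted p = 0.00418). Dgat2 was the other one called (-0.61 ± 0.15), and Adipoq, Fabp4, Lpl and Lep did not pass. Rsl male 1 had the lowest mean of the list (11.10, against 11.67 in rsl male 2 and 11.80 and 11.79 in females). Of 20 measured genes of fatty acid synthesis, 2 were called higher and 15 lower in males (85% in all), against 6.84% and 10.2% of all autosomal genes, with a median difference of -0.995. Me1, the malic enzyme that makes NADPH, gave 9.67 and 10.52 in males, against 12.33 and 12.42 in females (-2.28 ± 0.27, adjusted p = 0.00494). Acss2, which makes acetyl-CoA from acetate, gave 9.68 and 9.72 in males, against 11.64 and 11.53 in females (-1.89 ± 0.22, adjusted p = 0.00486), and Acaca, acetyl-CoA carboxylase, gave 9.49 and 9.91 in males, against 11.54 and 11.59 in females (-1.86 ± 0.21, adjusted p = 0.0045). In all 3 the male pools were at least 1 log2 unit below the female pools. Elovl6 (-1.67 ± 0.40), Acacb (-1.50 ± 0.30) and Gpd1 (-1.47 ± 0.21) were lower too, as were Acly (-1.23) and Fasn (-1.12), while Scd1 did not pass. Fads2, the delta-6 desaturase, went the other way with 8.90 and 8.05 in males, against 5.68 and 5.95 in females (2.66 ± 0.36, adjusted p = 0.00796), as did Fads1 at 0.67. Rsl male 2 was the lower male pool for Elovl6 (8.98, against 9.93 in rsl male 1), and rsl male 1 for Me1. The part of the lower adipocyte mean of rsl male 1 in these differences was not tested. The 11 calls followed next are those given with a standard error, so Acly, Fasn and Fads1 are not among them. Of these 11 calls, 1 held under every alternative run, and the number lost was 5 with the 4 rsl arrays fitted alone, 10 without rsl female 2, 9 without rsl female 1, 4 without either wild type female pool and 1 without either rsl male pool or either wild type male pool. In the adipocyte list the number called was 1 with the rsl arrays alone or without either rsl female pool and 15 without rsl male 2. For the fatty acid synthesis list the number was 8 with the rsl arrays alone and 1 without rsl female 2.

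**Figure D3:**
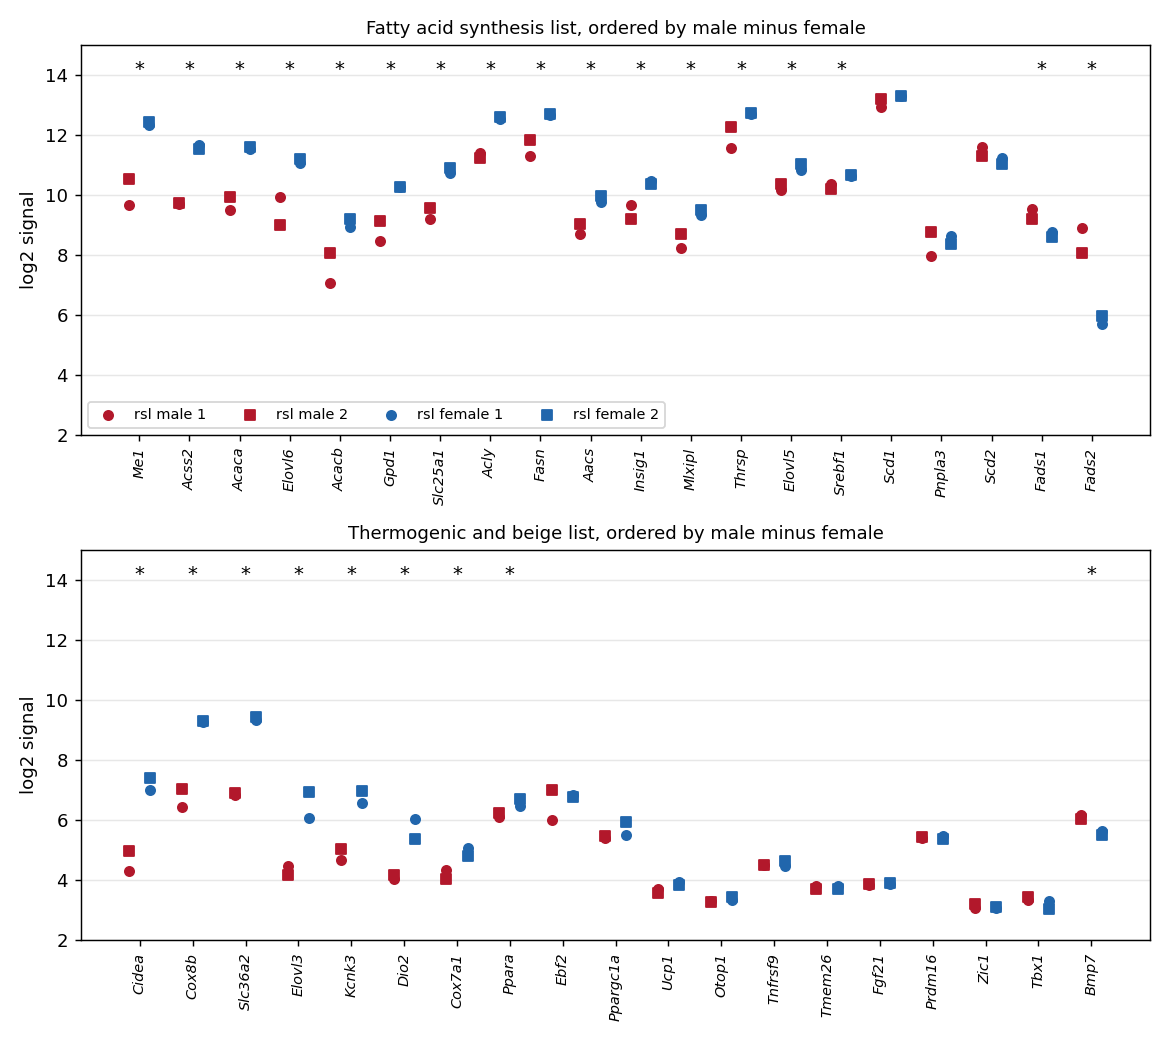
Log2 signal (vertical axis) of the members of the fatty acid synthesis list (top) and the thermogenic and beige list (bottom) in the 2 rsl male and 2 rsl female pools, ordered by the male minus female difference; a star marks a limma adjusted p under 0.05. Male pools lay below female pools from Me1 to Srebf1, and Fads2 was the largest rise.

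Several genes of oxidative and beige fat were lower in males. Of 19 measured members of the thermogenic and beige list, 1 was called higher and 8 lower in males (47.4% in all, against 17% of all autosomal genes), and Ucp1 did not pass and was below background in both male pools. Cidea, a lipid droplet protein of brown and beige cells, gave 4.31 and 4.96 in the rsl male pools, against 7.01 and 7.39 in the rsl female pools (-2.56 ± 0.24, adjusted p = 0.00274). Cox8b, a subunit of cytochrome oxidase, gave 6.42 and 7.05 in males, against 9.27 and 9.30 in females (-2.55 ± 0.23, adjusted p = 0.00249), and Slc36a2, a proton-coupled amino acid transporter, gave 6.84 and 6.89 in males, against 9.32 and 9.43 in females (-2.51 ± 0.20, adjusted p = 0.00166). In these 3 both female pools were well above both male pools. Elovl3, a fatty acid elongase, gave 4.46 and 4.18 in males, against 6.08 and 6.92 in females (-2.18 ± 0.25, adjusted p = 0.00459). Kcnk3, a potassium channel, gave 4.67 and 5.04 in males, against 6.58 and 6.96 in females (-1.92 ± 0.18, adjusted p = 0.00254), and Dio2, which activates thyroid hormone, gave 4.02 and 4.16 in males, against 6.03 and 5.38 in females (-1.62 ± 0.19, adjusted p = 0.00504). Bmp7 was the 1 member called higher (0.54). Of 19 genes of fatty acid oxidation, 1 was called higher and 9 lower in males (52.6% in all). Acadl fell by 1.09 and Cpt2 by 1.00 log2 units, and Cpt1a, the liver form of the gatekeeper enzyme, was 0.71 ± 0.11. Neither Acadl nor Cpt2 kept its call in every alternative, and both lost it with the 4 rsl arrays fitted alone. The 7 calls followed next are those given with a standard error, so Acadl, Cpt2 and Bmp7 are not among them. Every alternative run kept 6 of these 7 calls, and the losses were 1 with the 4 rsl arrays fitted alone and 1 without either rsl female pool. In the fatty acid oxidation list the number called was 0 with the rsl arrays alone or without either rsl female pool and 17 without rsl male 2.

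In triglyceride assembly and lipolysis most called genes were lower in males, and genes of cholesterol synthesis were called in both directions. Of 20 measured triglyceride assembly genes, 1 was called higher and 8 lower in males (45% in all, against 17% of all autosomal genes). Slc27a1, a fatty acid transporter, gave 8.82 and 9.03 in the rsl male pools, against 10.29 and 10.40 in the rsl female pools (-1.42 ± 0.12, adjusted p = 0.002), and Gpat3, which starts glycerolipid synthesis, gave 9.09 and 9.32 in males, against 10.54 and 10.54 in females (-1.34 ± 0.09, adjusted p = 0.00101). Of 21 genes of lipolysis and the lipid droplet, 0 were called higher and 7 lower in males (33.3% in all). Adora1, the adenosine receptor that restrains lipolysis, gave 5.68 and 6.08 in males, against 7.36 and 7.32 in females (-1.46 ± 0.14, adjusted p = 0.00306), whereas the lipases Pnpla2 and Lipe did not pass. Both genes of the first pair and Adora1 had male pools below female pools without overlap. Of 18 cholesterol synthesis genes, 2 were called higher and 4 lower in males (33.3% in all). Srebf2, a transcription factor that drives sterol synthesis, was higher with 6.75 and 6.66 in males, against 6.13 and 6.11 in females (0.58 ± 0.07, adjusted p = 0.00625). Among these 4 calls 3 held under all alternatives run, and those lost numbered 1 without either rsl female pool. In the triglyceride assembly list the number called was 5 with the rsl arrays alone, 2 without either rsl female pool and 14 without rsl male 2. For the lipolysis and lipid droplet list the number was 3 with the rsl arrays alone, 2 without rsl female 2 and 15 without rsl male 2. In the cholesterol synthesis list the number called was 1 without either rsl female pool.

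Among secreted factors and steroid genes, single members differed strongly. Lcn2, lipocalin 2, an iron-siderophore carrier made by fat and by epithelia, gave 12.28 and 11.94 in the rsl male pools, against 7.55 and 7.06 in the rsl female pools (4.81 ± 0.24, adjusted p = 0.000247). Agt, angiotensinogen, gave 9.53 and 10.14 in males, against 8.43 and 8.62 in females (1.31 ± 0.24, adjusted p = 0.018), and Rbp4, the retinol carrier, gave 10.28 and 11.32 in males, against 12.01 and 12.13 in females (-1.27 ± 0.29, adjusted p = 0.0344). Of 21 measured adipokine genes, 3 were called higher and 1 lower in males (19% in all, against 17% of all autosomal genes). Of 25 sex steroid receptors and enzymes, 2 were called higher and 4 lower in males (24% in all). Sult1e1, the estrogen sulfotransferase, gave 7.98 and 8.14 in males, against 3.67 and 3.91 in females and was at least 17.7-fold higher in males (adjusted p = 0.000121). Akr1c14, a hydroxysteroid dehydrogenase, gave 3.32 and 3.69 in males, against 7.54 and 7.29 in females and was at least 11.7-fold lower (adjusted p = 5.61e-05). The 2 enzymes thus stood at opposite ends, each below background in 1 sex. Pgr, the progesterone receptor, gave 4.36 and 4.35 in males, against 7.00 and 6.76 in females (-2.53 ± 0.20, adjusted p = 0.00156). Esr1, an estrogen receptor, gave 9.45 and 9.16 in males, against 10.18 and 10.30 in females (-0.94 ± 0.16, adjusted p = 0.0149), and Hsd11b1, which regenerates active glucocorticoid, gave 9.11 and 9.89 in males, against 8.51 and 8.32 in females (1.09 ± 0.23, adjusted p = 0.027). Males were the lower sex for both receptors and the higher for Hsd11b1. Of 20 estrogen or androgen responsive genes, 5 were called higher and 3 lower in males (40% in all). Greb1, known as an estrogen target, gave 8.58 and 6.88 in males, against 4.75 and 3.97 in females (3.37 ± 0.52, adjusted p = 0.0111), and Ccnd1, cyclin D1, gave 9.26 and 8.65 in males, against 7.56 and 7.43 in females (1.46 ± 0.18, adjusted p = 0.00644). Of 14 imprinted and fat expansion genes, 1 was called higher and 5 lower in males (42.9% in all), with Mest at 1.25 ± 0.18 and Grb10 at -1.47 ± 0.12. Of these 12 calls, 5 held under every alternative run, and the number lost was 3 with the 4 rsl arrays fitted alone, 7 without either rsl female pool and 2 without either wild type female pool. In the adipokine list the number called was 2 with the rsl arrays alone, 1 without either rsl female pool and 11 (2 higher, 9 lower) without rsl male 2. For the sex steroid receptors and enzymes list the number was 3 without either rsl female pool. In the estrogen and androgen responsive list the number called was 4 (1 higher, 3 lower) with the rsl arrays alone and 1 (0 higher, 1 lower) without either rsl female pool. For the fat expansion and imprinted growth list the number was 3 with the rsl arrays alone and 1 without either rsl female pool. Among adipokines, 2 were called higher and 3 lower after median centring or with gene means.

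Many stromal genes were lower in males, and in the immune cell lists 6.25% to 25% of the members were called. Of 22 measured matrix and collagen genes, 0 were called higher and 10 lower in males (45.5% in all, against 17% of all autosomal genes). Lum, lumican, gave 9.40 and 9.83 in the rsl male pools, against 11.08 and 11.11 in the rsl female pools (-1.48 ± 0.17, adjusted p = 0.00519), and Postn, periostin, gave 9.75 and 9.97 in males, against 10.95 and 10.98 in females (-1.10 ± 0.10, adjusted p = 0.00262), while Col1a1 and Col1a2 did not pass. Of 10 smooth muscle genes, 0 were called higher and 7 lower in males (70% in all). Cnn1, calponin, gave 7.03 and 6.71 in males, against 8.66 and 8.32 in females (-1.63 ± 0.21, adjusted p = 0.00661), and Des, desmin, gave 6.48 and 6.53 in males, against 8.22 and 7.84 in females (-1.53 ± 0.14, adjusted p = 0.00265). The male pools were below the female pools in all 4 genes. Of 17 progenitor genes, 0 were called higher and 5 lower in males (29.4% in all), led by Sfrp4, a secreted Wnt antagonist, with 5.45 and 5.76 in males, against 7.71 and 8.03 in females (-2.27 ± 0.14, adjusted p = 0.000693). Of 24 macrophage genes, 1 was called higher and 5 lower in males (25% in all). Cd163, a scavenger receptor of resident macrophages, gave 7.67 and 8.40 in males, against 9.14 and 9.28 in females (-1.18 ± 0.24, adjusted p = 0.0238), and Lyve1 was -1.16 ± 0.19, whereas Adgre1, Csf1r and Cd68 did not pass. Of 14 B and plasma cell genes, 1 was called higher and 2 lower in males (21.4% in all), with Jchain, the joining chain of antibodies, at -1.98 ± 0.38. Of 12 endothelial genes, 0 were called higher and 1 lower in males (8.33% in all), of 16 T and NK cell genes, 0 were called higher and 1 lower in males (6.25% in all), and of 10 mast cell genes, 0 were called higher and 1 lower in males (10% in all). Every alternative run kept 3 of these 8 calls, and the losses were 1 with the 4 rsl arrays fitted alone, 5 without rsl female 1, 4 without rsl female 2, 2 without either wild type female pool and 1 without rsl male 1. In the matrix and collagen list the number called was 4 with the rsl arrays alone, 1 without rsl female 2 and 17 without rsl male 2. For the smooth muscle list the number was 4 with the rsl arrays alone and 1 without rsl female 1. In the adipose progenitor list the number called was 3 with the rsl arrays alone and 1 without either rsl female pool. For the macrophage list the number was 2 with the rsl arrays alone, 0 without either rsl female pool and 11 without rsl male 2. In the B and plasma cell list the number called was 1 with the rsl arrays alone and 0 without either rsl female pool or either wild type female pool. For the endothelial list the number was 0 with the rsl arrays alone or without rsl male 1 or either rsl female pool or either wild type female pool and 9 without rsl male 2. In the T and NK cell list the number called was 0 with the rsl arrays alone or without rsl male 1 or either rsl female pool and 2 without rsl male 2. For the mast cell list the number was 0 without rsl male 1 or either rsl female pool or either wild type female pool and 4 (1 higher, 3 lower) without either wild type male pool.

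The largest falls outside these lists were in genes of varied function. Pcp4, which binds calmodulin, had the largest of all, with 4.68 and 4.55 in the rsl male pools, against 9.58 and 9.45 in the rsl female pools (-4.91 ± 0.32, adjusted p = 0.000771). Nrn1, a small membrane-anchored protein first known from neurons, gave 5.17 and 5.14 in males, against 8.81 and 8.81 in females (-3.65 ± 0.17, adjusted p = 0.000188), and Cybrd1, an iron-reducing cytochrome, gave 4.45 and 4.43 in males, against 7.99 and 8.09 in females (-3.60 ± 0.20, adjusted p = 0.000389). In each the pools of a sex were close together and the sexes far apart. Ptger3, a prostaglandin E receptor that inhibits lipolysis, gave 6.86 and 7.29 in males, against 10.27 and 10.26 in females (-3.19 ± 0.17, adjusted p = 0.000387). Mtarc1, a mitochondrial reductase, gave 5.59 and 5.75 in males, against 8.80 and 8.97 in females (-3.21 ± 0.19, adjusted p = 0.000528), and Angptl8, a secreted protein that restrains lipoprotein lipase, gave 5.12 and 4.93 in males, against 8.08 and 7.88 in females (-2.95 ± 0.38, adjusted p = 0.00647). Egr2, an early response transcription factor, was among the rises with 10.12 and 8.93 in males, against 4.91 and 4.66 in females (4.74 ± 0.57, adjusted p = 0.00537), while of the 16 early response genes measured 1 was called higher and 2 lower in males (18.8% in all, against 17% of all autosomal genes), and of 16 proliferation genes 0 passed and 5 had an unadjusted p under 0.05. Among these 7 calls 5 held under all alternatives run, and those lost numbered 2 without either rsl female pool. In the immediate early list the number called was 1 (1 higher, 0 lower) with the rsl arrays alone, 0 without either rsl female pool and 10 without rsl male 2. For the proliferation list the number was 2 without rsl male 2. The balance of the early response calls turned in other settings too, with 2 higher and 1 lower without dim probe sets and 3 higher and 2 lower after quantile normalization.

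Clock genes were mostly lower in males. Of 17 measured, 1 was called higher and 9 lower in males (58.8% in all, against 17% of all autosomal genes), with a median difference of -0.68. Dbp, a transcription factor of clock output, gave 10.11 and 10.25 in the rsl male pools, against 11.66 and 11.67 in the rsl female pools (-1.48 ± 0.11, adjusted p = 0.00112). Ciart, a repressor within the clock, gave 5.02 and 5.16 in males, against 6.98 and 6.90 in females (-1.85 ± 0.15, adjusted p = 0.00175), and Per2, of the negative limb, gave 5.57 and 6.08 in males, against 7.43 and 7.53 in females (-1.65 ± 0.25, adjusted p = 0.0108). Arntl, of the positive limb, was opposite with 5.90 and 5.50 in males, against 5.05 and 4.65 in females (0.85 ± 0.18, adjusted p = 0.0265). Dbp and Ciart separated the sexes of the rsl strain cleanly, and Per1, Nr1d1, Clock and Cry1 did not pass. The hour at which tissue was taken is not given in the sources used here. Of these 4 calls, 2 held under every alternative run, and the number lost was 1 with the 4 rsl arrays fitted alone, 2 without either rsl female pool and 1 without rsl male 1 or either wild type female pool. In the clock list the number called was 2 without rsl female 2.

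Most of what separated the sexes was not shown to depend on the strain. In wild type fat 1008 of 17847 autosomal genes were called (5.65%), 469 higher (2.63%) and 539 lower (3.02%) in males. The differences of the 2 strains share no array, but both sets of calls use the spread estimated from all 8 arrays. The overlap of calls given next is therefore no independent replication. Of the rsl calls, 19.9% were also called in wild type in the same direction, as were 59.8% of the wild type calls in rsl, and 603 of the 607 genes called in both strains had the same direction. Hoxa10, Hoxc10, Pgr, Cox8b, Wt1, Cidea, Akr1c14 and Pcp4 were called lower in males of both strains, and Lcn2, Sult1e1, Agt, Hsd11b1, Prom1 and Krt18 higher. Hoxa10 gave 4.43 and 4.41 in wild type males, against 7.49 and 7.75 in wild type females, and the strain difference was 0.41 ± 0.19, adjusted p = 0.505 (SE). Pcp4 gave 4.59 and 3.47 in wild type males, against 9.26 and 9.06 in wild type females (0.22 ± 0.45, adjusted p = 0.904). In both genes each male pool of each strain was below each female pool. The difference of the sex differences itself passed in 20 autosomal genes (0.112%), 12 above 0 (0.0672%) and 8 below (0.0448%). Of the 12 above 0, 9 are in the epididymis list, which was chosen with earlier results of these data known. Where an arm lies below background, this difference depends on values that are no level and is no bound. Lcn8 gave 3.84 and 5.45 in wild type males, against 3.86 and 3.99 in wild type females, and the strain difference was 7.76 ± 0.67, adjusted p = 0.0194. Lypd8 gave 3.60 and 4.13 in wild type males, against 3.57 and 3.65 in wild type females (8.12 ± 0.35, adjusted p = 0.0011), and Cst11 gave 3.43 and 3.71 in wild type males, against 3.52 and 3.37 in wild type females (7.74 ± 0.34, adjusted p = 0.0011). Wild type male 2 was above wild type male 1 in all 3, and both were far below the rsl male pools. Crisp1 and Lcn5 were unlike them, with 12.60 and 7.14 in wild type males, against 3.21 and 3.03 in wild type females for Crisp1 and 12.59 and 6.04 in wild type males, against 3.95 and 3.86 in wild type females for Lcn5, so that wild type male 1 was close to the rsl males. Their strain differences did not pass (2.06 ± 2.08, adjusted p = 0.777 for Crisp1 and 3.09 ± 2.49, adjusted p = 0.712 for Lcn5).

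Of the 8 genes below 0, Sprr2f and Prap1 were bright in both rsl female pools and dim in the other 6 pools. Values in brackets in this paragraph are the strain difference, that is the rsl sex difference minus the wild type sex difference. Sprr2f gave 3.20 and 3.32 in wild type males, against 3.54 and 3.21 in wild type females (-3.78 ± 0.18, adjusted p = 0.00148), and Prap1 gave 4.10 and 3.93 in wild type males, against 3.96 and 3.90 in wild type females (-3.09 ± 0.18, adjusted p = 0.00298), beside rsl female values of 7.21 and 7.02 for Sprr2f and 7.31 and 6.99 for Prap1. Dbp and Ciart were lower in males in rsl and not in wild type fat, where Dbp gave 11.01 and 11.29 in wild type males, against 10.87 and 10.78 in wild type females (-1.81 ± 0.15, adjusted p = 0.0194) and Ciart gave 5.26 and 5.71 in wild type males, against 5.21 and 4.99 in wild type females (-2.23 ± 0.22, adjusted p = 0.0352). In both clock genes the sign of the difference was opposite in the 2 strains, with no call in wild type. Crtac1, an extracellular matrix protein, gave 5.92 and 6.03 in wild type males, against 5.44 and 5.29 in wild type females (-2.22 ± 0.15, adjusted p = 0.0075). Nrg4, a growth factor secreted by brown fat, gave 8.30 and 8.46 in wild type males, against 8.53 and 8.64 in wild type females (-1.40 ± 0.14, adjusted p = 0.0364), and Pcsk4, a proprotein convertase, gave 5.37 and 5.45 in wild type males, against 5.39 and 5.33 in wild type females (-1.47 ± 0.13, adjusted p = 0.0234). Slc25a33, a mitochondrial nucleotide carrier, gave 7.30 and 7.25 in wild type males, against 6.94 and 6.97 in wild type females (-1.10 ± 0.11, adjusted p = 0.0433). The number of such genes rested on single pools: it was 3 without either wild type female pool, 4 without either rsl female pool, and 128 and 1633 when rsl male 1 or rsl male 2 was left out. It was 207 when wild type male 1 was left out and 32 for wild type male 2. The wild type count was 664 with wild type male 1 left out, 120 and 81 without wild type female 1 and 2, 414 without either rsl female pool and 2038 without either rsl male pool.

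**Figure D4:**
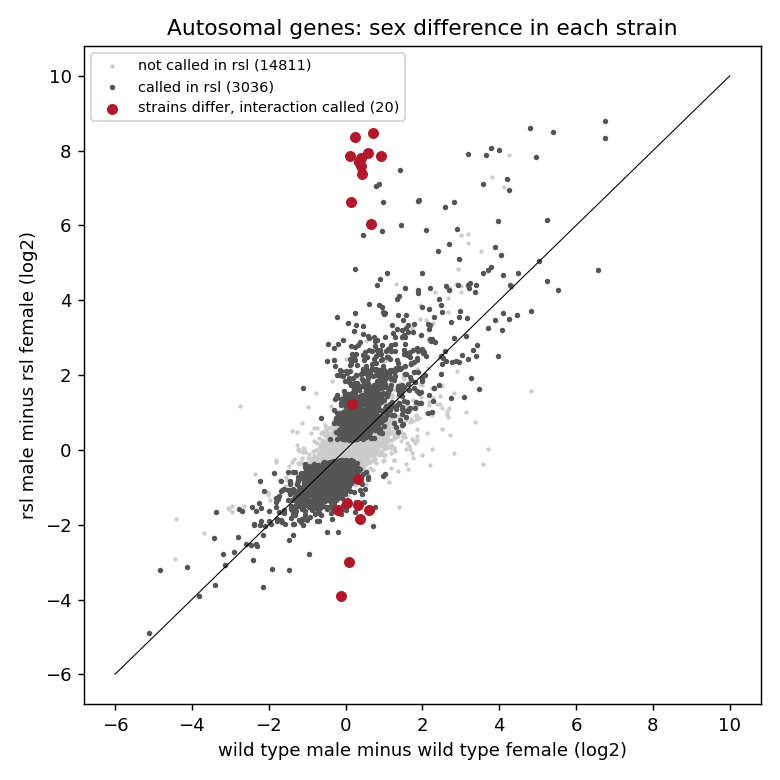
Male minus female difference of each autosomal gene in rsl fat (vertical axis, log2) against that in wild type fat (horizontal axis, log2), which share no array; grey points were not called in rsl, dark points were called and red points are the 20 genes whose difference differed between the strains. The line marks equal differences, and 12 red points lie above it, most of them at the top, and 8 below it.

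**Figure D5:**
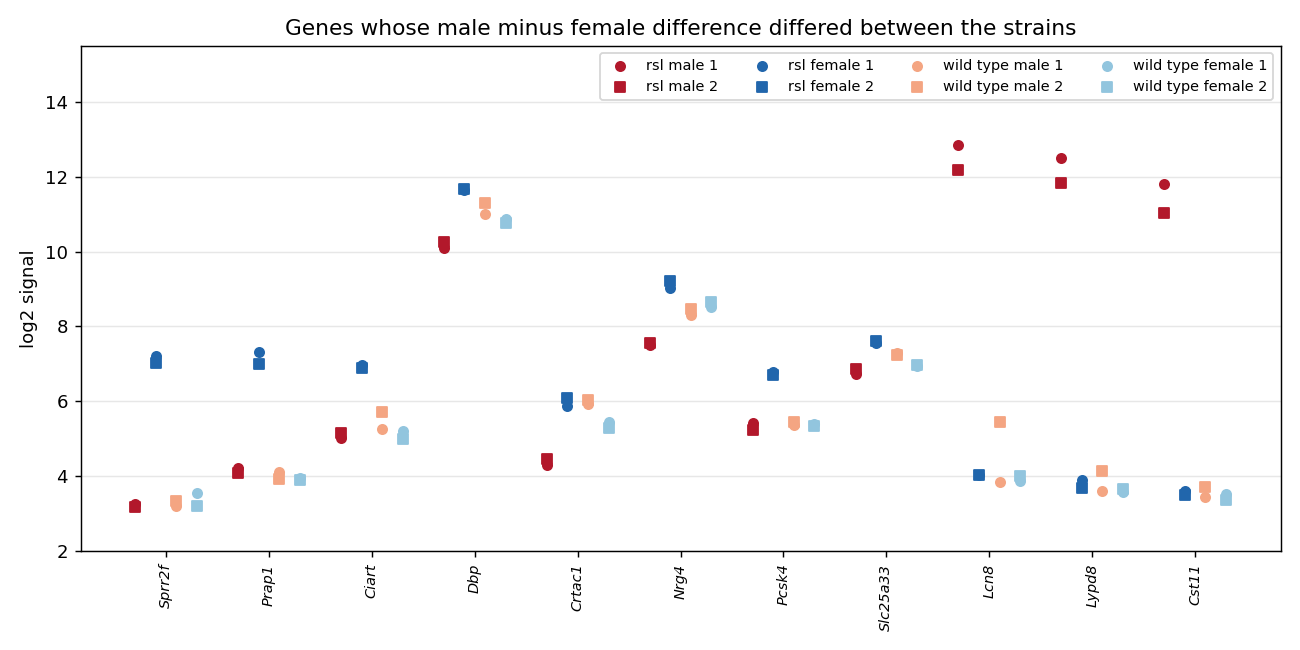
Log2 signal (vertical axis) in all 8 pools for 11 genes whose sex difference differed between the strains; colours give the group, with rsl males and females left of wild type males and females. Sprr2f and Prap1 were high in both rsl female pools only, and Lcn8, Lypd8 and Cst11 were high in both rsl male pools only.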

How the data were processed

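Each of the 8 arrays held total RNA of abdominal white fat pooled from 5 mice, labelled from 400 ng per the labels' protocols. The authors deposited log2 signals per probe set, normalized with RMA (robust multi-array average) per the submitters' processing notes, with no version given there. The authors' second deposited table gave probe set annotation as text of the other unit, and its 8 value columns match no sample label and were not used. Of 45141 probe sets, 104 controls were set aside and 45037 tested, and 38352 were named, 34512 of them by accession through RefSeq (GRCm38.p6). The brightest probe set of a gene, by its mean over all arrays, stood for that gene. Another 665 genes of X and Y and 2225 genes without a chromosome were left out of the description, and 17847 autosomal genes remained.

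Each array's background was the brightest signal among 22 non-specific controls (GC counts 3 to 24), leaving out the one with GC count 25 once its values had been seen. Where both pools of the dimmer sex were at or below it, a fold is a lower bound, written "at least". Linear models (limma 3.58.1, R 4.3.3) used all 8 arrays, with 1 coefficient per group, a constant prior variance, 4 residual and 3.00 prior degrees of freedom, two-sided p-values, and Benjamini-Hochberg adjustment over 45037 probe sets at a threshold of 0.05. Values after ± are moderated standard errors in log2 units. Precision is limited by 2 arrays a group.

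The procedure was tested on simulated arrays with known changes. It recovered most changes of the sizes tried and held its false calls near the threshold when all groups shared a spread. When each probe set kept its own spread in each group, false calls rose far above the threshold. Adjusted p-values may therefore be too small where the pools of 1 sex differ. The counts and list shares may then hold more false calls than the threshold implies.

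Replicate numbers were not taken to pair the arrays, since no label ties a number to shared mice or a shared batch. Deviations of same-numbered pools correlated at -0.03 between rsl males and rsl females, 0.35 between rsl males and wild type males and 0.11 between rsl females and wild type females. The members, the 35 gene lists and the rule for named genes were chosen with earlier results of these data known. The rule names the 15 largest rises and 15 largest falls among called genes whose pools do not overlap, called members of each list (up to 6), up to 4 members with the smallest p where fewer than 4 passed, and up to 8 genes each way whose sex difference differed between strains. Other list members are given with their values where singled out after those were seen, and some genes that the rule names are not reported here. Of the 166 named and called genes, 83 had more than 1 probe set, and 0 had a called probe set in the opposite direction. Alternatives were the rsl arrays alone, a replicate block, an intensity trend, array weights and quantile normalization. Others were a filter on dim probe sets, the mean over a gene's probe sets, median centring, and leaving out each array in turn. A paragraph's count of calls kept or lost covers the genes printed there with a standard error or a bound.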

Additional observations from a re-analysis of the deposited data

Results flagged for a closer look

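In 17 named genes the male minus female difference in the rsl strain differed from that in the wild type strain, by a limma test of the difference itself over all 8 arrays (adjusted p under 0.05). Lypd8 had a male minus female difference of 8.37 log2 units in rsl fat, against 0.25 in wild type fat. Lcn8 had a male minus female difference of 8.48 log2 units in rsl fat, against 0.72 in wild type fat. The difference between the strains was 7.76 for Lcn8, 8.12 for Lypd8, 7.35 for Lcn9, 6.94 for Cst8, 7.39 for Rnase10, 7.74 for Cst11, 6.94 for Cstdc2, 7.19 for Pate5 and 7.35 for Cst12 (log2 units, rsl minus wild type). These 9 genes were bright in both rsl male pools and far lower in the other 6 pools. Sprr2f had a male minus female difference of -3.90 log2 units in rsl fat, against -0.12 in wild type fat. Dbp had a male minus female difference of -1.48 log2 units in rsl fat, against 0.33 in wild type fat. The values below 0 were -1.10 for Slc25a33, -1.47 for Pcsk4, -1.81 for Dbp, -2.22 for Crtac1, -1.40 for Nrg4, -2.23 for Ciart, -3.09 for Prap1 and -3.78 for Sprr2f. Of these 8 genes, Sprr2f and Prap1 stood above the other groups in rsl females, and Crtac1, Dbp, Ciart and Slc25a33 were lower in rsl males and higher in wild type males than in the females of their strain. Each adjusted p of the 17 genes lay between 0.0011 and 0.0433, and with 2 pools a group no pool could be set against the others of its group.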

How the results depend on the processing

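The direction of all 191 named genes held under the alternatives that gave a value, and 52 of the 166 called genes kept their call in every one. For the 166 called genes, whose male and female pools do not overlap, leaving out an array could not turn the direction. Fitting the rsl arrays alone leaves the difference itself unchanged. The held direction is therefore no test in those settings. The count of 3036 genes between rsl males and rsl females became 1095 when the 4 rsl arrays were fitted alone, 2912 with an intensity trend, 3187 without dim probe sets, 3032 after quantile normalization, 3028 with gene means and 2566 with array weights. With the replicate number as a block it was 3247, the wild type count 965 and the count for the difference between the strains 18, and the adipokine and skeletal muscle lists had 6 (2 higher, 4 lower) and 7 members called. The numbers are not known to pair the pools. Median centring gave 3310, of which 33.8% were higher in males, against 40.2% without it, and gene means gave 37.4%. Leaving out 1 array gave 327 to 5305. The wild type count of 1008 was 1899 with array weights and 81 to 2038 with 1 array left out. The count of 20 genes whose difference differed between the strains was 55 with array weights, 30 with an intensity trend and 3 to 1633 with 1 array left out. An arm left with 1 pool was assumed to vary like the other groups, and with a female pool gone the male pairs, in which 723 (rsl) and 528 (wild type) probe sets differed by 1 log2 unit or more, against 28 and 5 in the female pairs, made up more of the spread. No alternative could give a value for the difference between the strains from the rsl arrays alone. Precision is limited by 2 pools a group and by background, and 2804 autosomal genes lay below background on all 4 rsl arrays.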

Other observations

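Markers of further tissues moved in a few members each. Of 12 measured Leydig and Sertoli cell genes, 2 were called higher and 2 lower in rsl males (33.3% in all, against 17% of all autosomal genes), with 2 called when the rsl arrays were fitted alone or without either wild type female pool and 0 without either rsl female pool. Sox9, a transcription factor of Sertoli cells that other epithelia also express, gave 6.17 and 5.12 in rsl males, against 4.20 and 4.36 in rsl females, and Star, which carries cholesterol into mitochondria, gave 6.30 and 6.60 in rsl males, against 7.12 and 7.14 in rsl females. Of 21 measured liver genes, 0 were called higher and 3 lower (14.3%), with 0 called without either rsl female pool, 1 without either wild type female pool and 6 without rsl male 2 or with an intensity trend. Mup3, a major urinary protein, gave 3.19 and 3.63 in rsl males, against 6.24 and 6.13 in rsl females, and was at least 5.01-fold lower in males (limma adjusted p = 0.00838). Apoc3, an apolipoprotein, gave 5.20 and 4.71 in rsl males, against 6.29 and 6.39 in rsl females, while Alb did not pass. Of 15 measured genes of pancreas, kidney and intestine, 1 was called, Umod, with all 4 values below background, and 0 without either rsl female pool or with the rsl arrays alone.

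Pools of the wild type males split in the epididymal genes by gene. Crisp1, Lcn5, Defb42, Adam7 and Spink8 were bright in wild type male 1, with 12.60, 12.59, 11.57, 11.04 and 12.35, and dimmer in wild type male 2, with 7.14, 6.04, 5.56, 5.26 and 5.58. Gpx5 had the other order, with 5.93 in wild type male 1 and 7.87 in wild type male 2.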
